A study of Mus musculus with 16 samples.

Results

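The surgery by drug interaction is the difference between the effect of desipramine (DMI) in nerve-injured mice and its effect in sham-operated mice, taken per gene as SNI-DMI versus SNI-Saline minus Sham-DMI versus Sham-Saline. It is the same quantity as the injury effect under DMI minus the injury effect under saline. It uses all 16 libraries of the series, 4 in each of 4 groups, and 21371 of the 52636 listed genes had enough reads to be tested. Every library came from the dorsal root ganglia (DRGs, L3 to L6) of 1 male C57BL/6J mouse, 3 to 4 months old. Sham-Saline mice had the operation without nerve damage and vehicle injections, and Sham-DMI mice had the same operation with DMI at 15 mg/kg, injected intraperitoneally 2 times per day for 3 weeks. SNI-Saline and SNI-DMI mice had the tibial form of spared nerve injury (SNI), in which 2 branches of the sciatic nerve, the common peroneal and the sural, are tied and cut, followed by vehicle or by DMI on the same schedule. Treatment began 4 weeks after the operation by the labels and by the abstract, results and supplementary figure of the study, while its methods section gives 4 months. The operation was on 1 side only, and the sources used here do not state whether the ganglia of both sides were pooled.

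DMI is a tricyclic antidepressant that blocks the noradrenaline transporter and is used against neuropathic pain. DRGs hold the cell bodies of sensory neurons, wrapped by satellite glia, along with Schwann cells, vessels and immune cells. A sensory neuron whose axon has been cut switches to a regeneration programme with transcription factors such as Atf3 and Sox11, the growth-associated protein Sprr1a and the neuropeptides Npy, Gal and Nts, so that in an injured ganglion these genes mark damaged neurons.

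Median depth was similar across the groups, and sensory neuron markers were high in every library. Reads on genes ran from 41194238 to 73920332 per library, and the summed level of 9 sensory neuron markers was 7200 to 8820 CPM (counts scaled to library size) against 0.662 to 2.7 CPM for spinal cord interneuron markers, whereas the tissue label reads spinal cord beside a cell type label of DRG. Summed spinal motor neuron markers were at 197 to 279 CPM, of which Isl2 alone held 194 to 276 CPM and Chat at most 0.0919 CPM. Central astrocyte markers summed to 44 to 71.1 CPM. Some markers differed between groups: the neutrophil median was 30.9 CPM in Sham-Saline and 7.51 CPM in Sham-DMI. That of the oligodendrocyte lineage was 14.8 CPM in SNI-Saline (5.38 to 25.8 CPM) and 3.44 CPM in SNI-DMI (2.55 to 8.96 CPM), with overlapping ranges. In this sum Mobp alone reached 23.7 CPM, and Mog, Olig1, Olig2 and Opalin each stayed at or below 1.04 CPM. Summed skeletal muscle markers reached 275 CPM in SNI-DMI replicate 2 and 77.2 CPM in SNI-Saline replicate 2. The share of reads on no annotated feature averaged 9% in Sham-Saline, 7.97% in Sham-DMI, 8.1% in SNI-Saline and 7.79% in SNI-DMI. The library numbers in the titles run in 1 block for the DMI groups and in another for the saline groups, and in opposite order of surgery, so a shift between the blocks cancels in the interaction but a drift along the numbers cannot be told apart from it.

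With edgeR's quasi-likelihood test, 0 of 21371 genes (0%) had an interaction with a Benjamini-Hochberg adjusted p below 0.1, and the smallest adjusted p was 0.59. At a nominal p below 0.05 there were 1692 genes. DESeq2 on the same libraries called 16 genes, and limma's voom with quality weights called 0. Adding the cut-off of 0.32 on the log2 difference that the study uses leaves 738 genes (3.45% of those tested), called nominal DEGs from here on. Of these, 478 (2.24%) had a positive interaction, which means a level that is higher in SNI-DMI than the other 3 groups would give by addition, and 260 (1.22%) a negative one. In the same fit, 23.4% of genes differed between Sham-DMI and Sham-Saline at an adjusted p below 0.1 and 2.93% between SNI-DMI and SNI-Saline. By direction, 11.6% were higher and 11.9% lower in Sham-DMI, and 1.32% higher and 1.61% lower in SNI-DMI. The injury effect was called for 12% of genes under saline (5.85% higher, 6.18% lower) and 0.402% under DMI (0.374% higher, 0.0281% lower). The 626 calls in injured mice had a smallest adjusted p of 0.0622, and their number changed with the libraries kept. There were 0 when SNI-DMI replicate 1, 2 or 3 was left out, 0 when replicate 1 or 3 of SNI-Saline was, and 38 without SNI-Saline replicate 4. There were 226 and 241 without Sham-Saline replicates 4 and 2, 311 without Sham-DMI replicate 3, 984 without SNI-Saline replicate 2, and 1213 and 1842 without Sham-DMI replicates 2 and 1. DESeq2 gave 1898, voom 2014, the fit with a replicate block 172 and the removal of GC content and length trends 71. The 5010 calls in sham mice ran from 3286 (without Sham-Saline replicate 3) to 6094 over the fits without 1 library. These shares come from contrasts that share libraries, and a gene called in 1 of them and not in the other is not shown to differ.

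**Figure D1:**
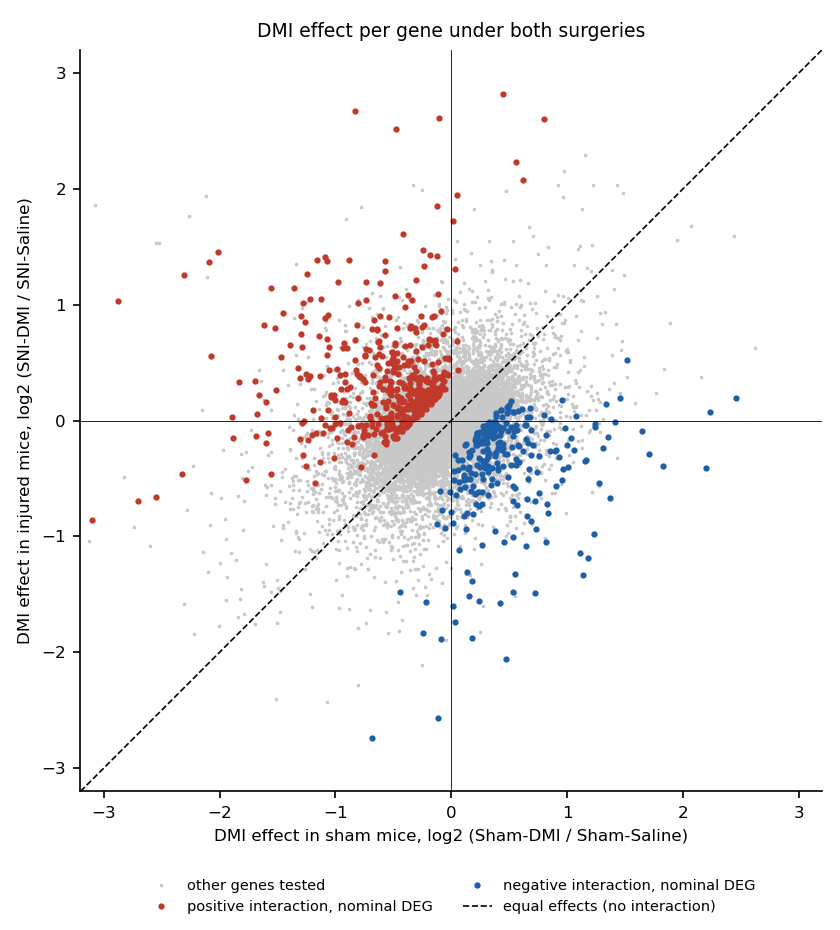
Log2 effect of DMI in sham mice (x axis) and in injured mice (y axis) for the 21371 genes tested. Red and blue points are the 478 positive and 260 negative nominal DEGs of the interaction, which lie off the dashed line of equal effects by construction. 7 genes fall outside the axes, which end at 3.2.

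The size of interaction that these mice could show was set by the spread between mice. The median standard error (SE) of the log2 interaction was 0.161, against 0.114 for the DMI effect in either surgery group, because the interaction combines 4 group means. For the 15750 genes with a mean of at least 1 CPM, the 95% interval of the interaction had a median half-width of 0.25 on the log2 scale. In 76.8% of them the interval lay wholly within a 1.5-fold difference in either direction, and in 94.5% within a 2-fold difference.

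Most nominal DEGs had DMI effects of opposite sign under the 2 surgeries, in 79.7% of the positive and 85.8% of the negative set, against 30.7% of all genes tested. The choice of genes by the same contrast favours opposite signs, so this is a description. In the positive set, 55.4% had a nominal p below 0.05 for the DMI effect in sham mice only and 20.5% in injured mice only, and in the negative set 48.1% and 28.8%. The group farthest from the mean of the other groups was Sham-Saline for 36.6% of the positive and 44.2% of the negative set, near the 42.4% among all genes. Sham-DMI was farthest for 31.4% of the positive and 16.2% of the negative set, against 18.2% of all genes. Positive nominal DEGs were long genes, with a median span of 24.1 kb against 8.57 kb for negative ones and 15.8 kb for all genes tested, and 74.9% and 57.3% of them were protein coding (73.6% of all).

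The 12 protein-coding genes with the smallest p for a positive interaction had an adjusted p of the interaction between 0.59 and 0.619. Of these, 10 were lower in Sham-DMI than in Sham-Saline at an adjusted p below 0.1, beside 11.9% of all genes, and the choice by a contrast that contains this effect favours such calls. Neto2, an auxiliary subunit of kainate-type glutamate receptors, was at 29.2, 31.8, 31.3 and 32.5 CPM in the 4 Sham-Saline mice, at 20.7, 24, 22 and 20.2 CPM in Sham-DMI, at 25.5, 23.9, 21 and 21.6 CPM in SNI-Saline and at 21.4, 22.7, 22.7 and 27 CPM in SNI-DMI. The Sham-Saline mice stood above every other mouse, and the other 3 groups overlapped. Over all genes tested, DMI and saline mice did not overlap in 17.1% after the sham operation and in 13.3% after SNI. For Neto2 the log2 interaction was 0.55 (SE 0.112, adjusted p = 0.59), made of an effect of -0.52 in sham mice (adjusted p = 0.00176) and 0.03 in injured mice (adjusted p = 0.885). Thsd7a, which encodes a membrane protein with thrombospondin repeats, had the same arrangement, with 150, 143, 159 and 153 CPM in Sham-Saline, 99, 120, 114 and 88.5 CPM in Sham-DMI, 108, 112, 107 and 96.5 CPM in SNI-Saline and 104, 110, 97.2 and 114 CPM in SNI-DMI. Its log2 interaction was 0.53 (SE 0.111), with -0.52 in sham mice (adjusted p = 0.00176).

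The adhesion molecule Ncam2 shared this arrangement and its relative Ncam1 did not. Ncam2 was at 25.8, 28.5, 30 and 29.9 CPM in Sham-Saline, 15.2, 21.9, 17.8 and 15.3 CPM in Sham-DMI, 19.3, 20, 21 and 14.2 CPM in SNI-Saline and 19.3, 17.4, 17.3 and 21.4 CPM in SNI-DMI, with a log2 interaction of 0.72 (SE 0.173). Ncam1 was at 163, 157, 164 and 169 CPM in Sham-Saline, 153, 177, 151 and 146 CPM in Sham-DMI, 153, 157, 145 and 148 CPM in SNI-Saline and 179, 181, 182 and 189 CPM in SNI-DMI. For Ncam1 the SNI-DMI mice stood above all others and the sham groups overlapped. Its log2 interaction of 0.33 (SE 0.0755) came from the injured mice, in which Ncam1 rose by 0.28 on the log2 scale with DMI (adjusted p = 0.0622), against -0.06 in sham mice (adjusted p = 0.513). Mmp14, a membrane-bound metalloprotease that cleaves collagen, was the other of the 12 with an adjusted p below 0.1 for DMI in injured mice. It was at 42.1, 36.3, 35.1 and 36 CPM in SNI-DMI and 27.5 to 32.6 CPM in the 12 mice of the other groups. Its log2 effect of DMI was 0.34 in injured mice (adjusted p = 0.0622) and -0.06 in sham mice, and the log2 interaction was 0.40 (SE 0.0982). Other genes of the 12 also had positive effects in injured mice, such as Npr3 at 0.37 (adjusted p = 0.188). The SNI groups did not overlap in 5 of the 12, beside 13.3% of all genes, in a set chosen by a contrast that contains this effect.

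Cacna1e, the pore subunit of R-type calcium channels, had log2 effects of DMI on both sides of 0, at -0.46 in sham mice (adjusted p = 0.0105) and 0.28 in injured mice (adjusted p = 0.197), and a log2 interaction of 0.74 (SE 0.159). It was at 37.6, 47.8, 49.3 and 54 CPM in Sham-Saline, 38.2, 37.5, 31.5 and 29.6 CPM in Sham-DMI, 35.8, 38.1, 29.5 and 27.9 CPM in SNI-Saline and 36.5, 41.8, 39.5 and 41.3 CPM in SNI-DMI, so that neither DMI group was apart from its saline group. Cacng4, an AMPA receptor auxiliary subunit of the TARP family, and Jag1, a Notch ligand, had log2 interactions of 0.61 (SE 0.143) and 0.57 (SE 0.131) with the same pair of signs. Jag1 was at 25.7 to 26.9 CPM in Sham-Saline, 16.5 to 24.1 CPM in Sham-DMI, 19.7 to 25.5 CPM in SNI-Saline and 24.9 to 26.9 CPM in SNI-DMI, so DMI and saline mice were apart after the sham operation and overlapped after SNI. Npr3, the clearance receptor for natriuretic peptides, and Arhgap6, a GTPase-activating protein gene, were low genes (4.7 and 4.58 CPM on average) with the widest intervals of the 12, at log2 interactions of 0.94 (95% interval 0.5 to 1.39) and 1.08 (0.53 to 1.62). The podosome scaffold gene Sh3pxd2b had the smallest p of all genes (adjusted p = 0.59) with a log2 interaction of 0.42 (SE 0.0848), and the transcriptional coactivator gene Zmiz1 had 0.40 (SE 0.0875).

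**Figure D2:**
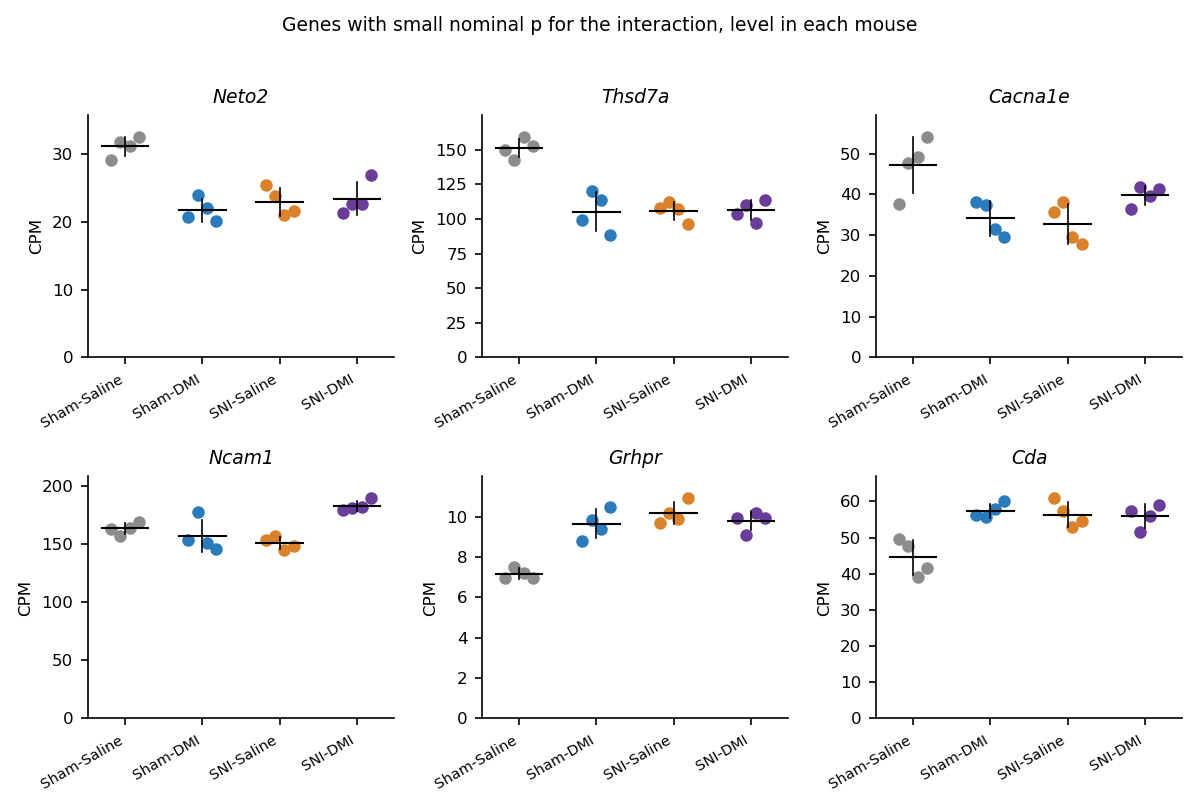
CPM in each of the 16 mice for 4 genes with a positive and 2 with a negative interaction; points are mice, horizontal bars group means and vertical bars 1 SD (n = 4). Neto2, Thsd7a, Grhpr and Cda show Sham-Saline apart from the other groups, and Ncam1 shows SNI-DMI above them.

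Of the 12 genes with the smallest p for a negative interaction, 11 were higher in Sham-DMI than in Sham-Saline at an adjusted p below 0.1. The share over all genes was 11.6%, and the contrast that chose these genes contains the same effect. Sham-Saline was the group farthest from the others in 10 of them and in 5 of the 12 positive genes, beside 42.4% of all genes. Grhpr, the glyoxylate and hydroxypyruvate reductase, was at 6.97, 7.52, 7.23 and 6.97 CPM in Sham-Saline, 8.81, 9.85, 9.39 and 10.5 CPM in Sham-DMI, 9.66, 10.2, 9.9 and 10.9 CPM in SNI-Saline and 9.93, 9.1, 10.2 and 9.93 CPM in SNI-DMI. The 4 Sham-Saline mice lay below the other 12. The log2 interaction of Grhpr was -0.48 (SE 0.108), with 0.43 in sham mice (adjusted p = 0.00264) and -0.05 in injured mice (adjusted p = 0.749). The cytidine deaminase Cda had a log2 interaction of -0.38 (SE 0.0978) and the microsomal glutathione transferase Mgst3 of -0.34 (SE 0.0932). In both, the 4 Sham-Saline mice lay below the 4 Sham-DMI mice, and the sham groups were apart in 17.1% of all genes. Cda ran from 39.2 to 49.5 CPM in Sham-Saline and from 51.4 to 60.8 CPM in the other 12 mice.

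Ion channels among these 12 were the inward rectifier potassium channel Kcnj14 at a log2 interaction of -0.80 (SE 0.204) and the ATP-gated P2rx6 at -0.33 (SE 0.0846). The protease inhibitor Serpinb1a (-0.41, SE 0.108), the adhesion molecule Nectin4 (-0.41, SE 0.108), the homeobox gene Hoxb7 (-0.47, SE 0.127) and Myadml2 (-0.64, SE 0.177) had log2 interactions of similar size. Dnajc22, a cochaperone gene, was the exception, since it fell in injured mice by 0.81 on the log2 scale (adjusted p = 0.0674) and had an effect of 0.19 in sham mice (adjusted p = 0.529). It was at 1.97, 1.06, 1.62 and 1.24 CPM in Sham-Saline, 1.83, 1.5, 1.9 and 1.5 CPM in Sham-DMI, 1.94, 1.65, 2.17 and 1.59 CPM in SNI-Saline and 1.01, 0.934, 1.24 and 1.01 CPM in SNI-DMI. The SNI-DMI mice lay below all SNI-Saline mice and overlapped with Sham-Saline. The interactions of all 24 genes kept their sign and a nominal p below 0.05 in each of the 16 fits that left out 1 library. The genes were chosen for their small p in these same libraries, which favours this outcome, so it is a description.

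**Figure D3:**
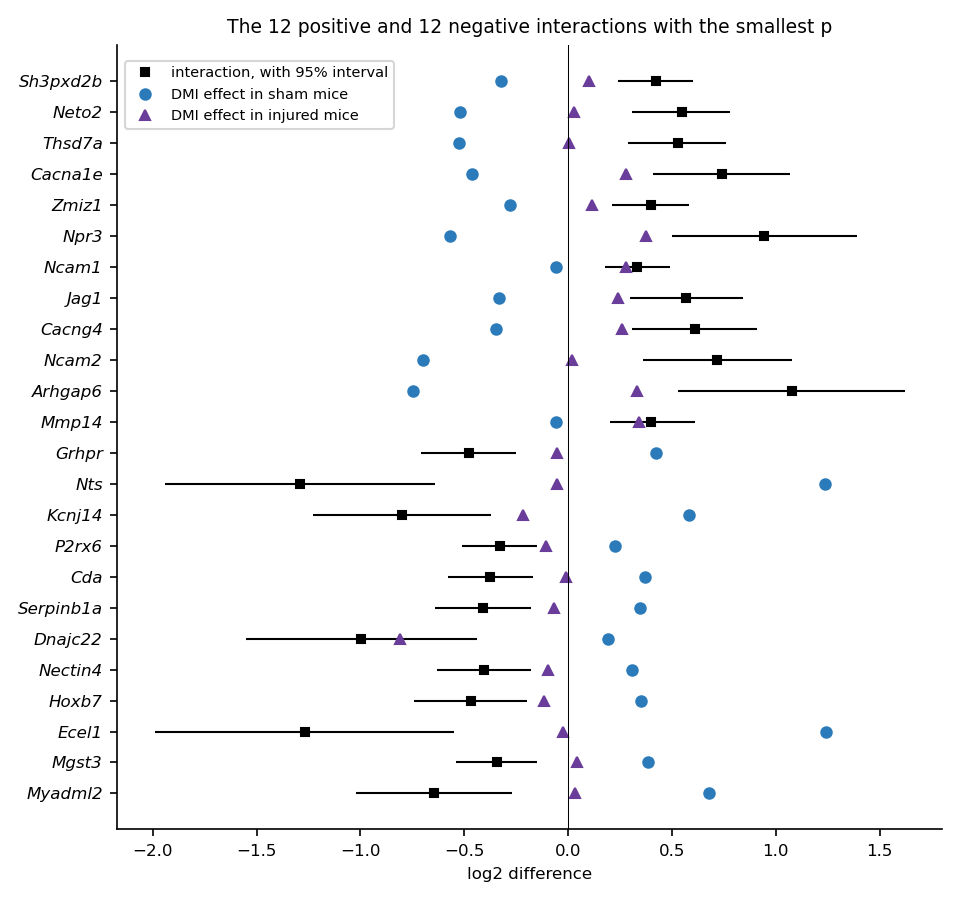
Log2 interaction with its 95% interval (black) and the log2 effects of DMI in sham mice (blue circles) and injured mice (purple triangles) for the 12 positive and 12 negative genes. The blue point lies farther from 0 than the purple one in all rows but those of Ncam1, Mmp14 and Dnajc22.

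The 2 remaining genes of the negative set, Nts and Ecel1, belong to the injured sensory neuron genes, the list with the lowest single value (Sprr1a) of the 32 lists. Of 21 tested members, 5 were nominal DEGs with a negative interaction (Sprr1a, Npy, Nts, Ecel1 and Cckbr) and 2 with a positive one (Cacna2d1 and Nfil3), beside 1.22% and 2.24% of all genes. The median log2 interaction of the list was -0.14, against 0.01 over all genes tested, and 14 of 21 values were negative (10409 of 21371 over all genes). Under saline, 17 members were higher after SNI at an adjusted p below 0.1 (5.85% of all genes), and 13 were under DMI (0.374%). In sham mice 7 members were higher with DMI (11.6% of all genes) and 1 (Cacna2d1) was lower, and in SNI mice 1 (Nfil3) was higher and 0 were lower. In bulk tissue, more cells with a transcript and more transcript per cell cannot be told apart.

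The genes with the largest differences had a low level in Sham-Saline mice, an intermediate level in Sham-DMI mice and a high level after SNI with or without DMI. Sprr1a was at 0.939, 2.06, 0.982 and 0.619 CPM in Sham-Saline, 1.81, 12.2, 1.67 and 9.19 CPM in Sham-DMI, 41.1, 45.2, 43.7 and 45.5 CPM in SNI-Saline and 59.3, 37.6, 30.1 and 73.9 CPM in SNI-DMI. Replicates 2 and 4 of Sham-DMI were high and the other 2 overlapped with Sham-Saline, while all SNI mice were far above. This gave a log2 interaction of -2.27 for Sprr1a (SE 0.683, adjusted p = 0.619). Sprr1a rose by 2.46 on the log2 scale in sham mice with DMI (adjusted p = 0.00667), and in injured mice the effect was 0.20 (adjusted p = 0.837). The Sham-DMI mean of 6.22 CPM stood 11.9% of the way from the Sham-Saline mean to the SNI-Saline mean.

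Npy, the neuropeptide Y gene, was at 0.157, 1.55, 0.249 and 0.106 CPM in Sham-Saline, 0.512, 4.5, 1.5 and 3.34 CPM in Sham-DMI, 22.3, 23.8, 19.4 and 26.2 CPM in SNI-Saline and 26.9, 19.4, 17.6 and 33 CPM in SNI-DMI. Replicates 2 and 4 of Sham-DMI again held the highest sham levels, and replicate 2 of Sham-Saline stood above the rest of its group. The log2 interaction of Npy was -2.16 (SE 0.757) and became -3.80 without Sham-Saline replicate 2 and -1.68 without Sham-DMI replicate 2. Nts, the neurotensin precursor, was at 12.1, 10.8, 8.62 and 9.87 CPM in Sham-Saline, 18.4, 24.2, 15.8 and 38.7 CPM in Sham-DMI, 73.3, 66, 62.8 and 82.2 CPM in SNI-Saline and 74.6, 55.5, 52 and 91.5 CPM in SNI-DMI. All Sham-DMI mice were above all Sham-Saline mice and below all SNI mice for Nts (the sham groups were apart in 17.1% of all genes). Nts had a log2 interaction of -1.29 (SE 0.31), with 1.24 in sham mice (adjusted p = 0.00278) and -0.05 in injured mice (adjusted p = 0.918).

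Ecel1, an endopeptidase-like protein made by damaged neurons, had the same order of groups as Nts without overlap between the sham groups. It was at 1.79, 1.82, 2.46 and 1.43 CPM in Sham-Saline, 3.79, 6.29, 2.85 and 4.65 CPM in Sham-DMI, 14.4, 18.7, 19.1 and 15.1 CPM in SNI-Saline and 18.3, 12.5, 11.1 and 24.1 CPM in SNI-DMI, and its log2 interaction was -1.27 (SE 0.342). Cckbr, a cholecystokinin receptor, was at 1.06, 2.18, 0.674 and 2.74 CPM in the Sham-DMI mice, against group means of 0.619 CPM in Sham-Saline, 6.74 CPM in SNI-Saline and 7.71 CPM in SNI-DMI, with a log2 interaction of -1.26 (SE 0.422). The transcription factor Atf3 rose by 0.69 on the log2 scale in Sham-DMI (adjusted p = 0.0391), and its log2 interaction of -0.62 (SE 0.302, adjusted p = 0.628) was not a nominal DEG. It was at 12.1, 11.9, 10.6 and 7.44 CPM in Sham-Saline, 11.4, 20.6, 13.7 and 21.8 CPM in Sham-DMI, 50.9, 51.5, 52.4 and 54.6 CPM in SNI-Saline and 59.5, 45.3, 36.9 and 78.9 CPM in SNI-DMI. The SNI-DMI mice spread far more widely than the SNI-Saline mice for Atf3, with replicates 1 and 4 high and 2 and 3 low, an order that also held for Sprr1a, Npy, Nts and Ecel1.

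**Figure D4:**
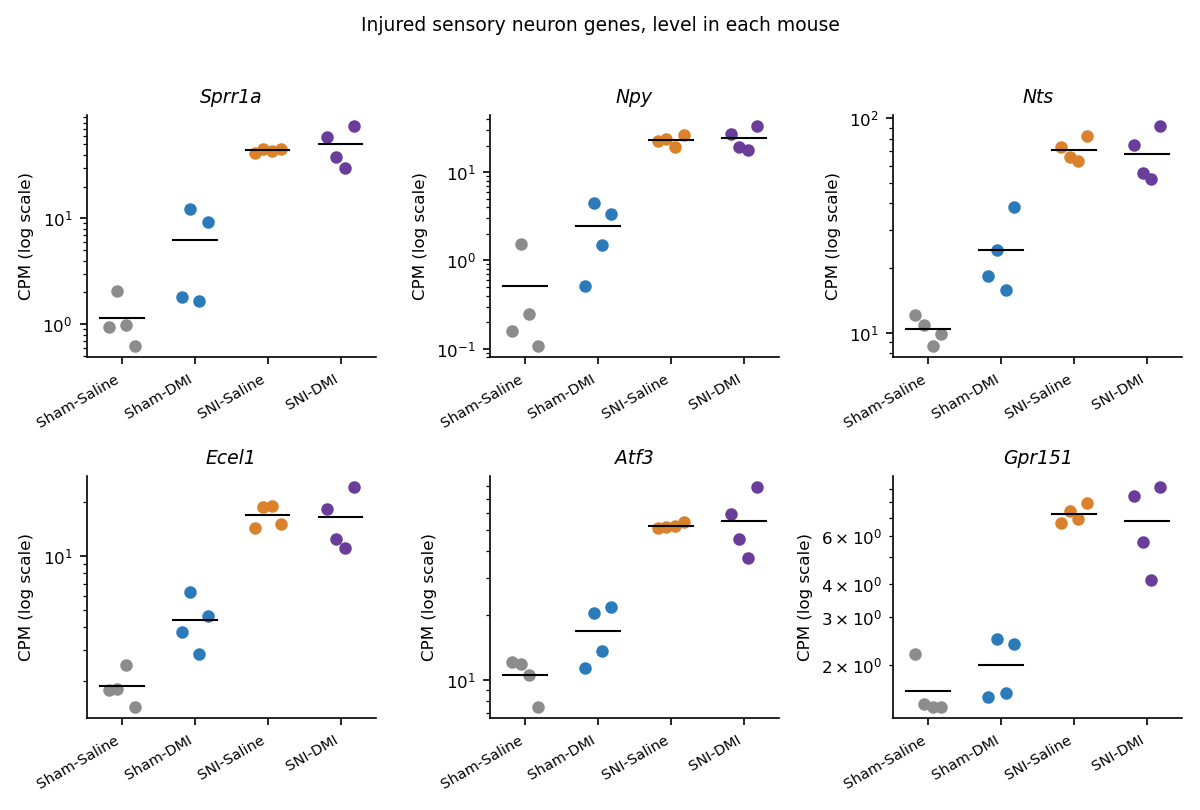
CPM on a log scale in each mouse for 6 injured sensory neuron genes, with group means as bars (4 mice per group). Sham-DMI mice lie between Sham-Saline and both SNI groups for Nts and Ecel1, and replicates 2 and 4 of Sham-DMI do so for Sprr1a and Npy.

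The members that were not nominal DEGs had 95% intervals that include 0. The transcription factor gene Sox11 had a log2 interaction of 0.03 (95% interval -0.34 to 0.41), and the orphan receptor gene Gpr151 of -0.42 (-1.09 to 0.25). Gpr151 averaged 1.6 CPM in Sham-Saline, 1.99 CPM in Sham-DMI, 7.27 CPM in SNI-Saline and 6.85 CPM in SNI-DMI, and Sham-DMI replicates 2 (2.5 CPM) and 4 (2.38 CPM) were the highest sham mice. The stress neuropeptide genes Crh and Ucn had log2 interactions of -1.26 (SE 0.784) and -0.53 (SE 0.565). The neuropeptide gene Gal had a positive value, 0.26 (-0.31 to 0.84), and its SNI-DMI mice (44.5 to 57.9 CPM) were above all SNI-Saline mice (24.1 to 43.7 CPM). Cacna2d1, the calcium channel subunit that binds gabapentin, fell by 0.57 on the log2 scale in Sham-DMI (adjusted p = 0.00314) and had an effect of -0.20 in SNI-DMI (adjusted p = 0.325). The nominal p of its interaction stayed below 0.05 in 11 of the 16 fits without 1 library, and that of Nfil3 in 8. The median of the list ran from -0.25 without SNI-DMI replicate 4 to -0.10 over the fits that left out 1 library.

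The promoters of Sprr1a and Nts are shown because both hold the letters TGANTCA, the core motif of the AP-1 family that includes Atf3 and Jun. Sequences are from RefSeq on GRCm38.p6, from 250 bases before to 50 after the gene start, and the stretches below lie before the start and read 5′ to 3′ on the gene's strand, with the motif in capitals. The Sprr1a stretch is chr3:92485977-92486041 on the minus strand, from 160 to 96 bases before the start, and the Nts stretch is chr10:102490605-102490639 on the minus strand, from 221 to 187 bases before the start.
Sprr1a: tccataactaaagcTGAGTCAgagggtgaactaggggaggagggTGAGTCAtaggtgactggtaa
Nts: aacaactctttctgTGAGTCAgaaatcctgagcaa
Sprr1a holds 2 matches and Nts 1, and the searched letters TGANTCA are their own reverse complement, so 1 search covers both strands. Of 32851 such windows in the mouse genome table, 7.81% hold the motif. Of the 9 genes searched, 8 had a window, and those of Npy, Ecel1, Cckbr, Atf3, Sox11 and Gal held no match within it. The matches are letters in a window and not evidence of binding.

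Positive nominal DEGs outnumbered negative ones in 2 lists of receptor and channel genes, as they did over all genes (2.24% and 1.22%). Of 14 GABA-A receptor subunit genes, 4 were positive nominal DEGs (Gabrg3, Gabrq, Gabrb1 and Gabra3) and 0 negative, with a list median of 0.02 on the log2 scale. Of 20 voltage-gated sodium and background (K2P) potassium channel genes, 4 were positive (Kcnk3, Kcnk2, Scn3a and Scn2b) and 0 negative, with a median of 0.05. With trends on GC content and length removed, these medians were -0.03 and -0.02. The nominal p of Gabrq rose above 0.05 in all but 4 of 16 fits without 1 library, and that of Gabra3 and Gabrb1 in all but 6. Scn3a and Scn2b each kept a nominal p below 0.05 in 7 of the 16. Gabrg3, a subunit the study names, was at 3.25, 4.84, 6.34 and 7.31 CPM in Sham-Saline, 4.87, 4.41, 3.45 and 2.54 CPM in Sham-DMI, 4.2, 4.11, 2.23 and 2.22 CPM in SNI-Saline and 4.01, 4.76, 5.29 and 4.27 CPM in SNI-DMI. The sham groups overlapped, as did the SNI groups. Gabrg3 had a log2 interaction of 1.04 (SE 0.361, adjusted p = 0.619), with -0.51 in sham mice (adjusted p = 0.184) and 0.53 in injured mice (adjusted p = 0.281).

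The background potassium channels Kcnk2 and Kcnk3, which set the resting potential, had log2 interactions of 0.74 (SE 0.228) and 0.79 (SE 0.35). Kcnk3 was at 17.9, 31.4, 37 and 41.4 CPM in Sham-Saline, 42.8, 28.9, 24.8 and 19.7 CPM in Sham-DMI, 26.5, 35.8, 17.3 and 19.6 CPM in SNI-Saline and 37.2, 43.1, 38.5 and 37.7 CPM in SNI-DMI. SNI-DMI was above all SNI-Saline mice, and the sham groups overlapped. The SNI groups were apart in 13.3% of all genes. Without Sham-DMI replicate 4 the log2 interaction of Kcnk3 was 0.63, and its nominal p stayed below 0.05 in 8 of the 16 fits without 1 library. For Kcnk2 the SNI-DMI mice (23.3 to 27.3 CPM) were also above the SNI-Saline mice (15.2 to 22 CPM), and its nominal p stayed below 0.05 in all 16.

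Genes of monoamine synthesis, transport and signalling, which include the targets of DMI, had a median log2 interaction of -0.03 over 35 tested members, with 17 positive and 18 negative values. Maob, which encodes monoamine oxidase B, was the positive nominal DEG (0.78, SE 0.292) and the serotonin receptor gene Htr2c the negative one (-1.35, SE 0.582), beside 2.24% and 1.22% of all genes. Htr2c was at 0.157, 0.226, 0.343 and 0.242 CPM in Sham-Saline, 0.171, 0.247, 0.225 and 0.189 CPM in Sham-DMI, 0.127, 0.342, 0.321 and 0.458 CPM in SNI-Saline and 0.174, 0.0459, 0.099 and 0.106 CPM in SNI-DMI. It fell by 1.57 on the log2 scale in injured mice with DMI (adjusted p = 0.0883), although replicate 1 of SNI-Saline lay below replicate 1 of SNI-DMI, and the effect in sham mice was -0.22 (adjusted p = 0.759). Its nominal p for the interaction stayed below 0.05 in 9 of 16 fits without 1 library. The dopamine receptor gene Drd2 had a log2 interaction of 0.89 (95% interval -0.07 to 1.85), and the gene of the dopamine-synthesizing enzyme tyrosine hydroxylase, Th, of 0.16 (-0.22 to 0.55).

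The remaining genes that the study names for DMI in injured mice include Il6, the interleukin-6 gene. Il6 was at 0.0696, 0.24, 0.0312 and 0.151 CPM in Sham-Saline, 0.188, 0.124, 0.225 and 0.205 CPM in Sham-DMI, 0.344, 0.261, 0.353 and 0.474 CPM in SNI-Saline and 0.0523, 0.168, 0.165 and 0.121 CPM in SNI-DMI. The SNI-Saline mice were above all other mice, and the other 3 groups overlapped. Il6 had a log2 interaction of -2.01 (SE 0.662, adjusted p = 0.619), with -1.48 in injured mice (adjusted p = 0.11) and 0.53 in sham mice (adjusted p = 0.493), at 2 to 31 reads per library. It ranged from -2.57 to -1.70 over the fits without 1 library and kept a nominal p below 0.05 in all 16. For the chitinase-like gene Chil3 (-0.41, 95% interval -1.84 to 1.01), the neutrophil alarmin S100a8 (0.14, -1.10 to 1.38), the protease Adamts4 (-0.36, -1.18 to 0.47) and Actb (0.10, -0.08 to 0.27) the interval of the log2 interaction included 0. Actb, the cytoplasmic actin gene, rose with DMI by 0.29 on the log2 scale in sham mice (adjusted p = 0.00447) and by 0.39 in injured mice (adjusted p = 0.0622).

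Neutrophil genes had the largest DMI effects of all lists under both surgeries. The median log2 DMI effect over 13 tested members was -1.50 in sham mice, where 10 fell (11.9% of all genes), and -1.38 in injured mice, where 2 fell (1.61%), and the median interaction was 0.13 with 0 nominal DEGs (-0.07 without SNI-DMI replicate 3 to 0.56 without Sham-DMI replicate 2, and 0.65 with voom). The summed level of 6 neutrophil markers was 10.2 to 38 CPM in Sham-Saline, 3.7 to 15.7 CPM in Sham-DMI, 14.9 to 49.1 CPM in SNI-Saline and 4.1 to 13 CPM in SNI-DMI, so the SNI groups were apart and the sham groups overlapped. Macrophage genes had a median log2 interaction of 0.01 over 18 members, with 0 nominal DEGs, which became -0.19 without SNI-DMI replicate 1 and 0.24 without SNI-Saline replicate 2. B cell genes had the highest list median, 0.51 over 8 members (0.21 with at least 10 counts required in every library, and 0.34 without SNI-DMI replicate 4). Igkc (3.56, SE 0.934) and Pax5 (0.98, SE 0.418) were its nominal DEGs, beside 2.24% positive nominal DEGs over all genes. Igkc, the immunoglobulin kappa constant gene, was at 8.82, 5.02, 9.27 and 2.17 CPM in Sham-Saline, 2.36, 0.851, 0.499 and 1.32 CPM in Sham-DMI, 2.1, 1.79, 0.835 and 1.08 CPM in SNI-Saline and 2.21, 9.8, 0.808 and 0.995 CPM in SNI-DMI. SNI-DMI replicate 2, which also had the most skeletal muscle transcripts, held the highest Igkc level, and without it the log2 interaction was 2.18.

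Interferon-stimulated genes, which respond to viral nucleic acid and interferon, had positive interactions in 26 of 30 members (10962 of 21371 over all genes). Their median was 0.28 on the log2 scale, and 0.22 to 0.54 over the alternatives other than the fits without 1 library. The antiviral gene Rsad2 was the 1 nominal DEG of the 30 (0.67, SE 0.27), beside 2.24% positive nominal DEGs over all genes. In sham mice with DMI 5 members were lower and 1 was higher at an adjusted p below 0.1, a share of lower genes near the 11.9% over all genes. In injured mice 0 members were called (2.93% of all genes). Rsad2 was at 11.6, 8.17, 8.57 and 9.45 CPM in Sham-Saline, 5.87, 6.81, 5.24 and 4.43 CPM in Sham-DMI, 9.55, 12, 8.13 and 12.3 CPM in SNI-Saline and 11.8, 6.51, 8.54 and 12.7 CPM in SNI-DMI. The Sham-DMI mice lay below both saline groups, and SNI-DMI replicates 1 and 4 stood above replicates 2 and 3. Summed macrophage markers (5 genes) were at 120, 73.4, 62.7 and 96.1 CPM in SNI-DMI replicates 1 to 4, 77.2 to 135 CPM in SNI-Saline, 65.5 to 74.3 CPM in Sham-Saline and 51.7 to 69.8 CPM in Sham-DMI, and their part in the interferon values was not tested. Over the fits without 1 library the list median ran from 0.08 (SNI-DMI replicate 1 left out) to 0.50 (replicate 2 of the same group left out), and it was also moved by over 1.5 times by SNI-DMI replicate 4 (0.12) and SNI-Saline replicates 1 (0.43), 3 (0.16) and 4 (0.18). Of 18 tested cytokine and chemokine genes, the fractalkine gene Cx3cl1 was the 1 positive nominal DEG (0.57, SE 0.181) and Il6 the 1 negative, beside 2.24% and 1.22% of all genes.

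Endothelial and pericyte genes were positive in 13 of 14 members (10962 of 21371 over all genes), with a median log2 interaction of 0.22 (0.15 to 0.29 over the fits without 1 library). The vascular growth factor receptor gene Flt1 was the 1 nominal DEG of the 14 (0.52, SE 0.174), beside 2.24% positive nominal DEGs over all genes. It was at 25.2 to 30.5 CPM in Sham-Saline, 14.1 to 25.2 CPM in Sham-DMI, 22.6 to 24.4 CPM in SNI-Saline and 19.9 to 25.7 CPM in SNI-DMI. Schwann cell and myelin genes were negative in 12 of 13 members (10409 of 21371 over all genes), with a median of -0.20 and 0 nominal DEGs. Their values followed single mice, and Mbp, the myelin basic protein gene, ranged from 1090 to 1890 CPM within Sham-DMI alone. Left-out libraries took the list median to -0.07 (Sham-DMI replicate 4), -0.11 (Sham-DMI replicate 3), -0.10 (Sham-Saline replicate 1) and -0.34 (Sham-DMI replicate 2). The glial potassium channel gene Kcnj10 was the 1 nominal DEG of 11 satellite glia genes (0.44, SE 0.115; 2.24% of all genes were positive), with SNI-DMI mice at 80.8 to 102 CPM and SNI-Saline mice at 69.4 to 79.4 CPM. Of 15 A-fiber neuron genes, the BDNF receptor gene Ntrk2 (0.36, SE 0.1) and the osteopontin gene Spp1 (-0.50, SE 0.198) were nominal DEGs in opposite directions, beside 2.24% positive and 1.22% negative over all genes.

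Ribosomal protein and nuclear respiratory chain genes had interactions of 1 sign. All 33 cytosolic ribosomal protein genes had a negative interaction, with a median of -0.17 on the log2 scale, and so did all 29 tested nuclear genes of the respiratory chain, with a median of -0.18 (Uqcrc1 the farthest from 0 at -0.84, SE 1.05). Over all genes tested, 10409 of 21371 interactions were negative, and signs of genes measured in the same mice are not independent. Neither list held a nominal DEG, and 1 gene of each turned positive with voom. With DMI, 33 ribosomal genes were called higher in sham mice (11.6% of all genes) and 2 in injured mice (1.32%), and 28 and 4 respiratory chain genes were. The median log2 DMI effect was positive under both surgeries. It was 0.32 in sham and 0.17 in injured mice for the ribosomal genes, and 0.33 and 0.14 for the respiratory chain genes. After SNI under saline, 29 and 17 of them were higher (5.85% of all genes). Rpl27, a ribosomal protein gene, was at 39.2 to 41.3 CPM in Sham-Saline, 47.9 to 58.6 CPM in Sham-DMI, 47.5 to 49.5 CPM in SNI-Saline and 51.5 to 59.2 CPM in SNI-DMI, and the Sham-Saline mice lay below all others. Mitochondrially encoded respiratory chain genes had a median interaction of -0.04. Sham-Saline libraries also had the highest mean share of reads on no feature, as given above, and the part of that share in these values was not tested. With trends on GC content and length removed, the medians were -0.13 for the ribosomal and -0.14 for the respiratory chain genes.

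**Figure D5:**
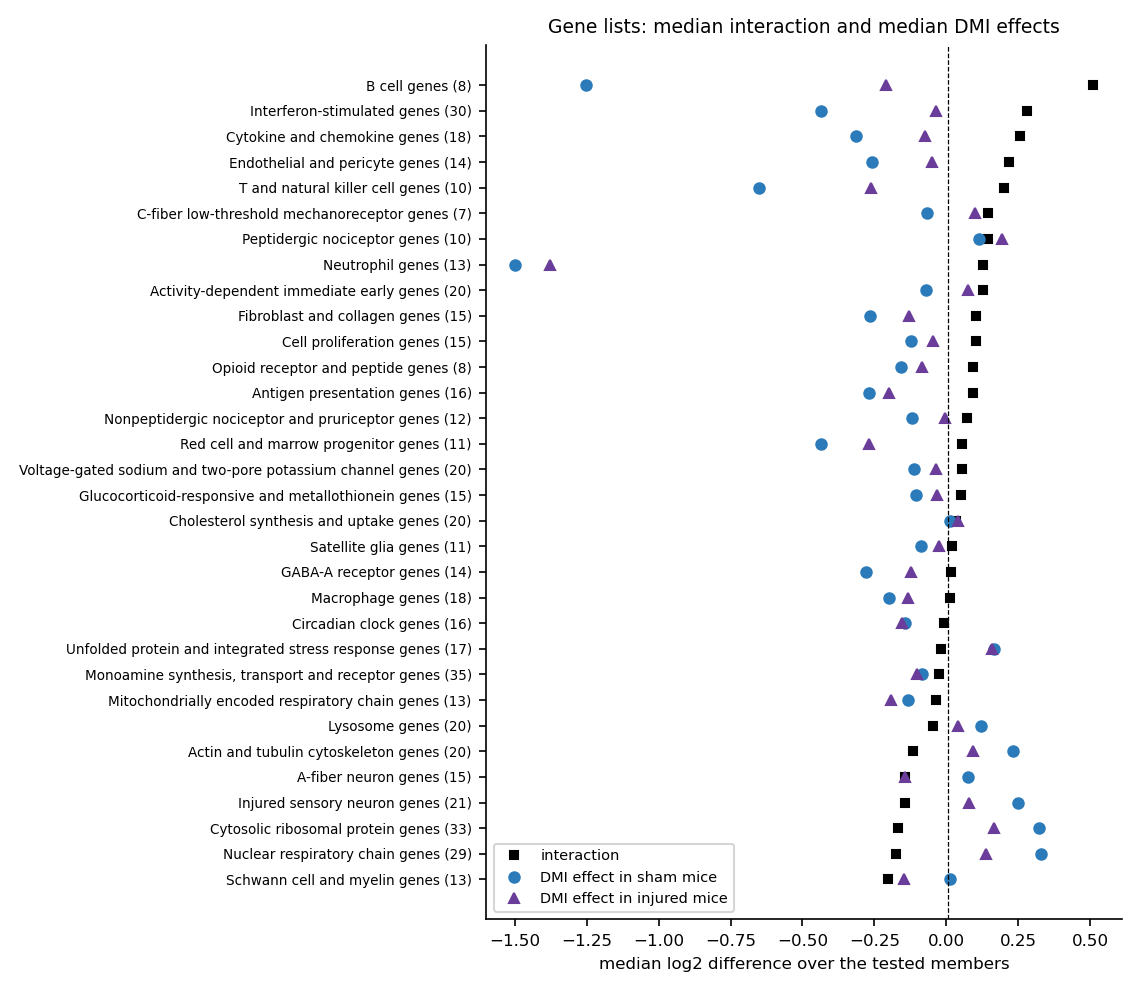
Median log2 interaction (black squares) and median log2 effects of DMI in sham mice (blue circles) and in injured mice (purple triangles) for 32 gene lists, with the number of tested members in brackets; the dashed line is the median interaction of all genes tested. Neutrophil genes have the largest DMI effects, with a median interaction of 0.13.

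Stress and metabolic lists had medians near that of all genes. Unfolded protein and integrated stress response genes had a median log2 interaction of -0.02, cholesterol synthesis genes of 0.04, circadian clock genes of -0.01 and lysosome genes of -0.05. Lysosome interactions were negative in 17 of 20 members (10409 of 21371 over all genes). With DMI, 10 of 20 lysosome and 10 of 17 unfolded protein genes were called higher in sham mice (11.6% of all genes), and 1 and 4 in injured mice (1.32%). The median log2 DMI effect of the unfolded protein genes was nearly the same under both surgeries, at 0.17 in sham and 0.16 in injured mice. That of the lysosome genes was 0.12 and 0.04. The nominal DEGs in these lists were 3 of 16 clock genes, all positive (Per1, Arntl and Npas2), beside 2.24% of all genes. Npas2 kept a nominal p below 0.05 in 4 of the 16 fits without 1 library. Of 20 activity-dependent immediate early genes, 2 were positive nominal DEGs (Egr1 at 0.64, SE 0.218, and Nr4a3 at 1.17, SE 0.442). Arc was the 1 negative (-0.50, SE 0.204), and the shares over all genes were 2.24% and 1.22%. Peptidergic nociceptor genes (10 members), nonpeptidergic nociceptor and pruriceptor genes (12) and C-fiber low-threshold mechanoreceptor genes (7) had 0 nominal DEGs, with medians of 0.14, 0.07 and 0.14 (0.06 to 0.21, -0.02 to 0.12 and 0.04 to 0.25 over the fits without 1 library). The 7 lists not described so far (glucocorticoid-responsive and metallothionein genes, antigen presentation, T and natural killer cells, red cells and marrow progenitors, fibroblasts and collagens, opioid receptors and peptides, and cell proliferation) had medians between 0.05 and 0.20. They held 2 positive (Col6a2, a collagen gene, and Per1 again) and 1 negative nominal DEG (Car2, a carbonic anhydrase gene), beside 2.24% and 1.22% of all genes. Each of the 7 medians fell below 0 in at least 1 fit without 1 library, and the widest ranges were those of red cells and marrow progenitors (-0.25 to 0.66), T and natural killer cells (-0.01 to 0.54) and antigen presentation (-0.12 to 0.31). Actin and tubulin genes had a median of -0.12, and 18 of 20 rose in Sham-DMI (11.6% of all genes).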

How the data were processed

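The authors made stranded mRNA libraries from the ganglia of 16 mice and read them in pairs of 50 bases. The deposited values are whole-number counts per Ensembl gene without normalization. The submitters' processing notes name HISAT2, HTSeq, DESeq2 and mm10, without versions. The annotation release and strand setting are not given in the sources used here, so reads from overlapping antisense genes cannot be told apart. 5 lines per file that name no gene were left out (18.8% to 20.4% of reads). Of 52636 genes, 52489 are in GENCODE M21 on GRCm38.

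Genes were kept by edgeR's filterByExpr on the 4 groups, scaled by TMM and fitted with edgeR 4.0.16 (glmQLFit, 1 coefficient per group, 12 residual degrees of freedom) in R 4.3.3, with the interaction as a contrast and Benjamini-Hochberg adjustment over all genes tested. CPM values use TMM library sizes. Intervals are at 95%. Alternatives used limma 3.58.1, DESeq2 1.42.0, sva 3.50.0 and mgcv 1.9.3, and figures matplotlib 3.10.9. The procedure was tested on simulated counts with planted interactions that were larger than many of those named here.

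Named are the 12 protein-coding genes of at least 1 CPM with the smallest p in each direction among nominal DEGs, the genes the study names, 8 injured sensory neuron genes and, of each list, the 2 members with the smallest p. Cckbr and other list members that are nominal DEGs were named after their values were seen. The members, lists and tests were chosen with earlier results of these data known. Pairs of replicates differed by more than sampling noise.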

Additional observations from a re-analysis of the deposited data

Results flagged for a closer look

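In 5 of 120 groups of 4 mice, 1 mouse stood apart from the other 3 by Dixon's ratio of its gap to the range of the group, past its 95% critical value. About 1 in 20 such groups is expected by chance. The ratio was 0.881 for Zmiz1 in SNI-Saline replicate 1 (101 CPM, with 105 CPM in each of the others), 0.897 for Npr3 in SNI-DMI replicate 2 (6.92 CPM, with 5.11 to 5.28 CPM in the others) and 0.901 for Cacng4 in SNI-DMI replicate 1 (7.89 CPM, with 8.71 to 8.81 CPM). It was 0.87 for Hoxb7 in SNI-DMI replicate 2 (9.14 CPM, with 10.4 to 10.6 CPM) and 0.94 for Gpr151 in Sham-Saline replicate 1 (2.19 CPM, with 1.39 to 1.43 CPM). Both SNI-DMI replicate 2 values come from the library with the most skeletal muscle transcripts, and the part of that library's makeup in them was not tested.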

How the results depend on the processing

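The count of genes with an adjusted p below 0.1 was 0 under the other filters and scalings, 1 surrogate variable, voom and the removal of GC content and length trends, 16 with DESeq2, and 0 to 1 when 1 library was left out (Lrrc58 without SNI-Saline replicate 4). The DESeq2 calls were 11 of the 12 positive genes named, Grhpr, Ostf1, Cflar, Gm26577 and 5033406O09Rik; Ostf1 had the smallest adjusted p (0.0059) and an edgeR log2 interaction of -0.27, short of the cut-off. Positive and negative nominal DEGs numbered 920 and 562 with no filter on low counts (38220 genes) and 864 and 430 with voom. With 1 library left out they ran from 389 to 737 and from 234 to 404, with both maxima without Sham-DMI replicate 2. Leaving out the 2 libraries with most skeletal muscle transcripts, an alternative chosen after seeing the data, gave 541 and 242. Replicate numbers did not pair the samples (5 of 24 pairs correlated above 0.1, and 6 of 16 libraries were closest to their own number), and the fit with a replicate block gave 0 genes at an adjusted p below 0.1 and 500 and 247 nominal DEGs. The log2 interaction turned sign for Chil3 (0.842 with voom; -0.73 to 0.089 with 1 library left out), S100a8 (-0.072 to 0.556) and Sox11 (-0.021 with GC content and length trends removed; -0.075 to 0.122), whose reported intervals all include 0, and the cause was not tested. The median over all genes moved by less than 0.1 with every scaling. Precision is limited by the spread between 4 mice per group, and for low genes such as Il6 also by their few reads.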
